A study of Mus musculus with 10 samples.

Results

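The early response to pressure overload was followed in 6 samples of mouse left ventricle, 3 taken after transverse aortic banding (TAB) and 3 after a sham operation, on days 3, 5 and 7 after surgery, out of 10 samples in the series. They were taken by their labelled operation and day, and the response was described over all 16113 genes measured. Every mouse was a C57BL/6J male of 8 weeks, anaesthetized with isoflurane, so the groups carried the same genotype and differed in the operation. TAB narrows the aortic arch and raises the pressure that the left ventricle pumps against. The sham mice were operated without the constriction. Total RNA was extracted from left ventricle tissue, so the RNA of muscle cells, fibroblasts, vessels and blood-derived cells was measured together. The number of mice behind a sample is not given in the sources used here. Each operation had 1 sample a day, treated as 1 array, and the 3 days served as replicates. The p-values below therefore measure the spread of the TAB to sham ratio over these days, which includes time after surgery, animals and arrays alike.

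Within days of a rise in load, the heart is known to switch on a fetal gene program in its muscle cells, to recruit monocytes from the blood and to activate its fibroblasts, which divide and secrete collagen and matricellular proteins. Heart muscle normally burns mostly fatty acids, and a fall of the genes for fatty acid oxidation and mitochondrial respiration is a textbook feature of hypertrophy. These programs were followed here by lists of genes with known roles.

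The level of a gene is given as the normalized intensity of its probe on a linear scale, and a change as the log2 ratio of TAB to sham, averaged over the 3 days. Raw median intensity lay between 34 and 53 on the 6 arrays, and the scanner software did not find a spot for 40.99 to 47.32% of the probes, most often on the TAB array of day 3 and least often on the sham array of the same day. Of all genes, 11194 were found on each of the 6 arrays and 2140 on none. The 20 genes of the adult sarcomere were found on all 6 arrays. Their summed intensity was 412688 to 447302 in sham and 409585 to 434330 in TAB, and the probe of Myl2 was saturated.

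In the limma fit with day as a block, 2358 genes passed an adjusted p of 0.05 (Benjamini-Hochberg over all genes), which will be called a change. Of these, 1340 genes were up-regulated, 8.32% of those tested, and 1018 were down-regulated, 6.32%. The median size of the log2 ratio was 1.24 among the up-regulated and 0.96 among the down-regulated genes. Beyond a 2-fold change in the same direction on all 3 days were 656 genes that were higher (4.07%) and 171 that were lower (1.06%). The 3 TAB arrays all lay above the 3 sham arrays for 21.4% of the genes and all below them for 22.6%. Of the up-regulated genes, 983 were found on all 6 arrays, and of the down-regulated ones 789. A further 36 and 45 called genes were found on no early array, so that their levels lie among spots the software did not see. Among genes given below with a ratio, the spots of Tnc, Rrm2, Cxcl10, Aldh1a2 and Slc16a3 were not found on 1 sham array, that of Mki67 on 2, and that of Ppargc1a on 1 TAB array. The residual spread rests on few degrees of freedom. When any day was left out of the blocked fit no gene passed, with 4040 to 4788 genes at an unadjusted p under 0.05, and without the block 1069, 198 and 293 genes passed when day 3, 5 or 7 was left out. The count rose to between 4096 and 5103 with 50 added to the intensity, the lowest tertile of genes left out, genes found on fewer than 3 arrays left out or a variance trend in the fit, and fell to 0 when probes below 1 were set to 1 instead of removed. With median scaling in place of quantile normalization, 1443 genes were higher and 619 lower, and with quantile normalization within each operation 1498 were higher and 838 lower.

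Among genes found on all 6 arrays Timp1, an inhibitor of the matrix metalloproteinases, had the highest log2 ratio. It had intensities of 121, 114 and 160.3 in sham and 7623, 12989.5 and 9534 in TAB on days 3, 5 and 7. The ratio was 6.23 with an SE of 0.24 (limma, adjusted p = 0.0183), and the lowest TAB value stood far above the highest sham value. Spp1, which encodes the matricellular protein osteopontin, read 75.6, 114 and 98.2 in sham and 3065, 3579 and 2837 in TAB, a log2 ratio of 5.05 ± 0.16 (SE, n = 3 days). Serpinb1a, an inhibitor of neutrophil serine proteases, read 115, 74.02 and 100.1 in sham and 1681, 2719.6 and 2639 in TAB. Sprr1a, a small proline-rich protein first known from the epidermal envelope, read 265, 209.8 and 232 in sham and 6149, 4844 and 3923 in TAB. The 2 genes had log2 ratios of 4.60 ± 0.30 and 4.38 ± 0.16. Itgb1bp3, now named Nmrk2, encodes a muscle kinase of nicotinamide riboside, a precursor of NAD. It read 124, 122 and 74.00 in sham and 2119, 2325 and 1889 in TAB. Others among the highest were Ch25h, the enzyme that makes 25-hydroxycholesterol (log2 ratio 4.24), Adam8, a membrane metalloprotease (4.12), Col1a2, a chain of type I collagen (4.10), the histone gene Hist1h2ao (3.73), Postn or periostin (3.70) and Cdk5r1, an activator of the kinase Cdk5 (3.64). Replication-dependent histone genes are close copies of each other, so the probe of Hist1h2ao may read several of them. For all 11 of these genes, which were picked by their high ratios, the TAB arrays lay above the sham arrays. The same held for 21.4% of all genes.

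**Figure D1:**
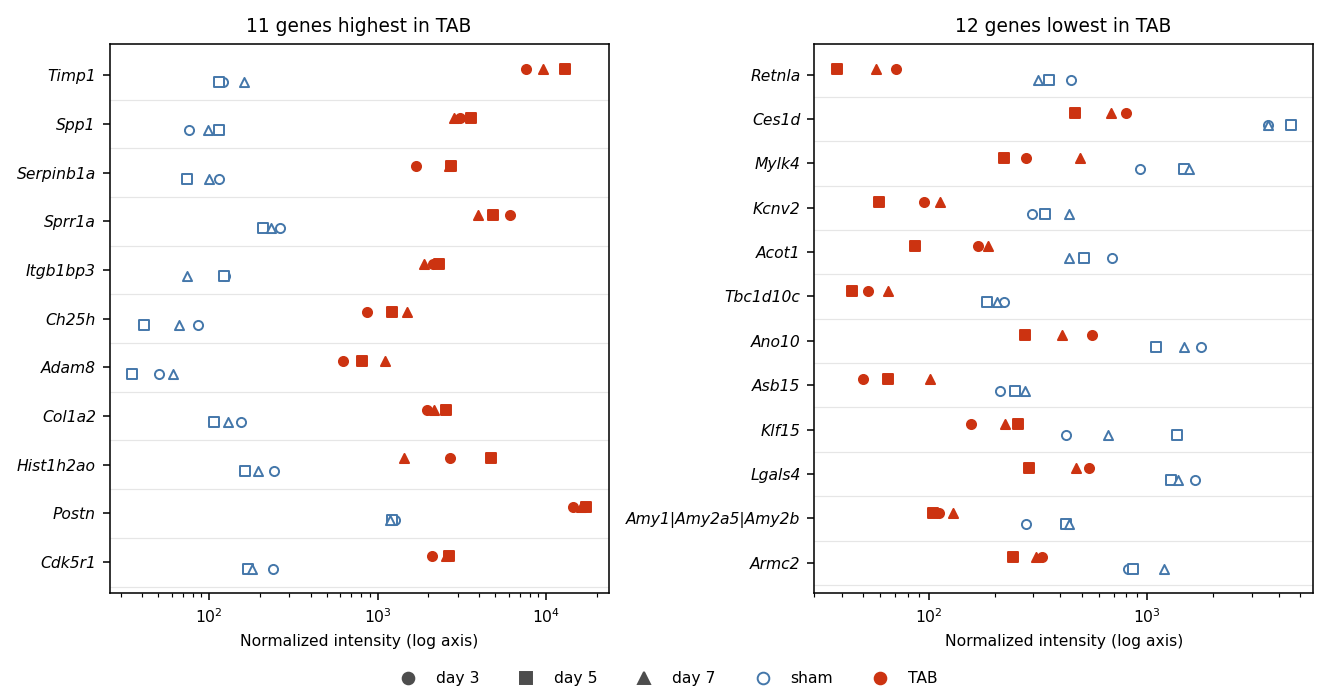
Normalized intensity (log axis) on each of the 6 early arrays for 11 of the 12 measured genes with the highest mean log2 ratio and the 12 with the lowest; open blue symbols are sham, filled red symbols TAB, and the symbol's shape gives the day. In every row the 3 TAB arrays lie on one side of the 3 sham arrays, from 7623 to 12989.5 against 114 to 160.3 for Timp1. The rows were picked by their ratios, and of all genes 21.4% had the TAB arrays all above sham and 22.6% all below.

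A further group of genes was found on all 3 TAB arrays and on no sham array, for which a fold change can only be bounded from below. A bound sets the mean TAB level against the weakest signal that the software found on each sham array, or against the probe's own value where that was higher. The highest bounds were those of Cxcr6, the receptor of the chemokine Cxcl16, which was at least 34.6-fold higher in TAB with TAB intensities of 250.1, 381 and 519, and of Top2a, the topoisomerase of dividing cells, at least 26.4-fold higher. Star, which carries cholesterol into mitochondria for steroid synthesis, was at least 24.7-fold higher, Gmps, the synthetase of GMP, at least 22.4-fold, Wisp1 (now Ccn4), a matricellular protein, at least 21.4-fold, and Gpr176, an orphan receptor, at least 16.3-fold. Their adjusted p lay between 0.0183 and 0.0358.

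The strongest falls were smaller in size. Retnla, the resistin-like protein of alternatively activated macrophages, read 447, 355 and 316 in sham and 70.6, 37.97 and 57.7 in TAB, and its log2 ratio was -2.78 ± 0.20 (SE, n = 3 days; adjusted p = 0.0194). It stands against the direction of most macrophage genes described below. Ces1d, a carboxylesterase that hydrolyses lipid esters, read 3573, 4511 and 3560.2 in sham and 794, 468 and 683 in TAB, with a log2 ratio of -2.61 ± 0.26. Klf15, a transcription factor that controls amino acid and lipid metabolism, read 424, 1362 and 659.5 in sham and 155, 256 and 222 in TAB, with its highest value on the sham array of day 5 (-1.81 ± 0.24). Acot1, a thioesterase of fatty acyl-CoA, had a log2 ratio of -1.95, and Mylk4, a kinase of the myosin light chain kinase family, and Kcnv2, a silent subunit of voltage-gated potassium channels, had ratios of -2.04 and -2.04. The other genes among the 12 lowest were Tbc1d10c (-1.92), Ano10 (-1.84), Asb15 (-1.82), Lgals4 (-1.77), the amylase genes Amy1, Amy2a5 and Amy2b, which share a probe and cannot be told apart (-1.70), and Armc2 (-1.69). Among genes found on the sham arrays but on no TAB array, Otogl was at least 7.09-fold lower in TAB, 1810012P15Rik (now Lyrm9), at least 6.89-fold, Gm8075, at least 5.86-fold, 2210409D07Rik, at least 4.9-fold, and Gm10677, at least 4.67-fold.

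Genes of the extracellular matrix rose together. Of 30 measured genes for structural matrix proteins, 26 were up-regulated (86.7%) and none was down-regulated, against 8.32% and 6.32% of all genes. Their median log2 ratio was 1.80 against -0.04 over all genes. Col1a2 read 156, 107 and 129 in sham and 1956, 2543 and 2159.5 in TAB, a log2 ratio of 4.10 ± 0.22 (SE, n = 3 days; adjusted p = 0.0191). Col3a1, the chain of type III collagen, read 64.5, 11.8 and 36.96 in sham and 683, 662 and 575 in TAB, and its spot was found on 2 of the 3 sham arrays. Fibronectin, Fn1, read 132, 143 and 126 in sham and 1025, 1995 and 1666 in TAB, a log2 ratio of 3.49, so that these fibrillar components rose by a similar order. Col12a1, a collagen that decorates fibrils, was found on no sham array and was at least 15-fold higher in TAB. The basement membrane chains Col4a1 and Col4a2 had lower ratios, 1.72 and 1.48, and elastin, Eln, had 1.90. The 4 members that did not pass were Col5a3 (0.28), Fbln1 (-0.48), the small proteoglycan decorin, Dcn (0.15), and Nid1 (0.54).

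Of 30 genes for enzymes that build or cut the matrix and for their inhibitors, 19 were up-regulated (63.3%) and none was down-regulated. Of all genes 8.32% and 6.32% were, and the median log2 ratio of the list was 1.09. Lox, the lysyl oxidase that cross-links collagen and elastin, read 15.9, 39.5 and 9.34 in sham, where its spot was found on 1 array, and 608, 922 and 1090.1 in TAB. A second probe of Lox gave a lower log2 ratio, 4.52 against 5.56. Its relatives Loxl1, Loxl2 and Loxl3 also rose, Loxl3 by at least 7.4-fold, whereas Loxl4 had a ratio of -0.16 that did not pass. Adamts8, a secreted protease with thrombospondin motifs, was found on no sham array and was at least 9.96-fold higher. Of the tissue inhibitors of metalloproteinases, Timp1 alone passed, and Timp2, Timp3 and Timp4 had log2 ratios of 0.48, 0.08 and -0.77. Of the metalloproteinases, Mmp2 (1.07), Mmp3 (1.45) and Mmp14 (1.60) were up-regulated, and Mmp9 (0.10) did not pass.

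Matricellular proteins, which sit in the matrix and signal to cells rather than bear load, had the highest median log2 ratio of all lists, 2.61. Of 17 genes, 14 were up-regulated (82.4%) and none was down-regulated, against 8.32% and 6.32% of all genes. Tnc, tenascin C, read 42.7, 17.6 and 43.9 in sham and 1783, 2590.4 and 959 in TAB, highest on day 5 and lowest on day 7. Postn read 1262, 1213 and 1190.4 in sham and 14363, 17226 and 16119 in TAB, and the near constancy of both groups gave a small error (3.70 ± 0.14, adjusted p = 0.0183). Ctgf, now Ccn2, the connective tissue growth factor, and Thbs1 and Thbs4, 2 thrombospondins, had log2 ratios of 2.61, 2.89 and 2.67. Thbs2 (0.08), Comp (0.71) and Ogn (-0.05) did not pass. Among 13 markers of fibroblasts and of myofibroblasts, their contractile form, 9 were up-regulated (69.2%) and none was down-regulated, with a median of 1.17. Meox1, a transcription factor, read 183, 88.4 and 128 in sham and 934, 760.1 and 710.0 in TAB, and Thy1, a surface protein, 354, 340.1 and 272 in sham and 1366, 1702 and 1051 in TAB. The summed intensity of this list was 13925 to 15679 in sham and 32836 to 36663 in TAB. In such bulk tissue, more cells of a type and more RNA per cell cannot be told apart. Tagln, a contractile protein shared with smooth muscle, was at least 7.63-fold higher. The markers of resting fibroblasts Tcf21 (0.25) and Dpt (0.06) and the collagen receptor Ddr2 (0.43) did not pass, and of the smooth muscle and pericyte list, which holds neither Acta2 nor Tagln, 1 of 10 genes rose and 1 fell, 10% each against 8.32% and 6.32% of all genes.

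The transforming growth factor beta (TGF-beta) superfamily, whose ligands drive fibroblasts to make matrix, changed in part. Of 25 genes, 7 were up-regulated and 1 was down-regulated, 28% and 4% against 8.32% and 6.32% of all genes. The median log2 ratio was 0.05, between 0.08 and 0.18 with 1 day left out and 0.28 for genes found on at least 3 arrays. Of the 3 TGF-beta ligands, Tgfb3 read 203, 201 and 196 in sham and 339, 560.4 and 438 in TAB and passed (log2 ratio 1.13), and Tgfb1 (-0.37) and Tgfb2 (0.50) did not. Gdf15, a distant member that circulates as a stress hormone, read 63.6, 68.6 and 67.3 in sham and 916, 591 and 805 in TAB, the largest ratio of the list at 3.51 ± 0.19. The latent binding proteins Ltbp2 (2.48) and Ltbp3 (1.27), which hold TGF-beta in the matrix, were up-regulated. Of the receptors, Tgfbr2 rose (1.06) and the coreceptor Tgfbr3 fell (-0.86).

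Most markers of monocytes and macrophages were up-regulated. Of 25 genes, 21 rose (84%) and none was down-regulated, against 8.32% and 6.32% of all genes. The median log2 ratio was 1.78, and the summed intensity of the list was 10942 to 12621 in sham and 35543 to 44870 in TAB. Cd68, a lysosomal protein of macrophages, read 355, 254 and 325 in sham and 1701, 2093 and 2099 in TAB (2.66 ± 0.20, adjusted p = 0.0196). Ms4a7 and Trem2, surface proteins of macrophages, had log2 ratios of 3.23 and 2.96, and Mpeg1, a pore-forming protein, had 2.80 with 3.82 on its second probe. The receptors Ccr2 and Cx3cr1, by which monocytes are recruited, rose by 2.18 and 2.56. The genes that did not pass included Cd163 (0.18), Lyve1 (0.16) and Timd4 (-0.15), which are known from macrophages that reside in tissue, beside Lgals3 (0.51).

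Of 11 neutrophil genes, 2 were called higher (18.2% against 8.32% of all genes), Csf3r, which was at least 3.76-fold higher, and S100a8, whose spot was found on no array. S100a8, Mmp8, Camp and Elane were found on none of the 6 arrays. Lcn2, lipocalin 2, read 72.2, 176 and 65.9 in sham and 234, 307 and 642 in TAB, and its log2 ratio of 1.93 did not pass (adjusted p = 0.0796). Of 15 genes of T, B and NK cells, Lck, a kinase of T cells, was at least 7.01-fold higher, and Cd2 (-0.72) and Pax5 (-0.71) fell, 6.67% higher and 13.3% lower against 8.32% and 6.32% of all genes, while Cd3g and Cd4 were found on no array.

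The median log2 ratio of 26 chemokines and chemokine receptors was 1.13, or 0.46 with 50 added to the intensity. Of these genes, 11 were up-regulated (42.3%) and none was down-regulated, against 8.32% and 6.32% of all genes. Ccl2 (2.96) and Ccl7, which attract Ccr2-bearing monocytes, were among them. Ccl7 read 56.04, 10.7 and 53.8 in sham and 288, 426 and 586 in TAB, and its log2 ratio was 3.71 ± 0.61, but its sham spot of day 5 was not found, and the ratio of that day was 5.32 against 2.36 and 3.45 on days 3 and 7. Ccl4 was found on no sham array and was at least 14.1-fold higher. Cxcl10, an interferon-induced chemokine, read 18.98, 31.99 and 22.9 in sham and 149, 381 and 521 in TAB. The stromal chemokines Cxcl12 (0.14) and Cxcl14 (-0.14) and the Cxcr6 ligand Cxcl16 (-0.15) did not pass. Of 18 cytokines and cytokine receptors, 5 rose and 2 fell, 27.8% and 11.1% against 8.32% and 6.32% of all genes. Il6 was found on no sham array and was at least 9.47-fold higher, with TAB intensities of 49.01, 126 and 77.1. Socs3, the feedback inhibitor that Il6-type cytokines induce, read 129.9, 121 and 135 in sham and 587, 545 and 526 in TAB (2.10 ± 0.13, adjusted p = 0.0191). Osmr (1.29), the receptor of oncostatin M, Il11 (0.99) and Il33 (1.68) rose, and Clcf1 (-1.16) and Csf3 (-1.18) fell. Il1b had a log2 ratio of 2.65 with an SE of 1.18 and did not pass, since its sham values were 76.6, 4.58 and 62.3 and the spot was not found on day 5. Tnf had a ratio of 0.04.

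Of 16 interferon-induced genes, Irf7 was up-regulated and Oas3 was down-regulated, 6.25% each against 8.32% and 6.32% of all genes, while the list's median log2 ratio was 0.03 on the earliest day, 1.23 by day 5 and 1.56 by day 7. Irf7, the factor that amplifies the interferon response, read 493, 407 and 324 in sham and 1004, 1467 and 1677 in TAB (adjusted p = 0.039). Isg15, a ubiquitin-like protein, read 134, 74.02 and 100.1 in sham and 211, 491 and 626 in TAB, and Igtp, a GTPase induced by interferon gamma, 1422, 545 and 433 in sham and 904, 2878 and 4563 in TAB. For Igtp the TAB array of day 3 lay below the sham array of that day, so the groups overlapped, and neither gene passed (adjusted p = 0.0658 and 0.23). With 1 array per operation and day, the difference in the ratio between days was not tested.

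About as many genes of cell division were up-regulated as did not pass. Of 21 genes of DNA replication, 11 were up-regulated (52.4%) and none was down-regulated, against 8.32% and 6.32% of all genes. The list's median log2 ratios were 1.15 on day 3, 1.60 on day 5 and 0.76 on day 7. Of 24 genes of mitosis, 10 were up-regulated (41.7%) and 1, Kif20a, was down-regulated (-0.79), 4.17% of the list. Their medians on these days were 2.16, 2.81 and 1.10. The medians of the 3-day mean were 1.14 and 1.93, and 0.71 and 0.99 with 50 added to the intensity. The difference between days was not tested. Mcm6, a subunit of the replicative helicase, read 91.9, 103 and 126 in sham and 352, 516 and 326 in TAB (1.88 ± 0.23). Rrm2, a subunit of the reductase that makes deoxynucleotides, read 21.9, 46.5 and 16.9 in sham and 179, 273 and 111 in TAB. Top2a was found on no sham array and read 312, 495 and 132 in TAB, and Ccnb2, cyclin B2, read 94.7, 144 and 48.4, at least 10.6-fold above sham. In each of these genes the TAB value was highest on day 5 and lowest on day 7. Aurka, a mitotic kinase, was at least 8.62-fold higher, Tpx2, which activates it on the spindle, at least 7.19-fold, and Kif23, a motor of cytokinesis, had a log2 ratio of 3.83 with its spot found on 1 sham array. The replication genes Gins2 and Uhrf1 were at least 9.08-fold and 7.76-fold higher. Ki-67, Mki67, had a ratio of 2.33. Ccna2 (2.85) and Plk1 (1.74) did not pass, nor did Ccnb1, whose ratio was -0.52. Of the 5 called genes with the widest spread of their 3 daily ratios, Top2a and 2810417H13Rik (now Pclaf, a partner of the replication clamp) belong to cell division, and Gmps, Egr2 and Fcgr4 were the others. The spots of Top2a, Gmps and Egr2 were found on no sham array, so their spread rests in part on undetected sham levels. Of 18 nucleolar genes, which make ribosomes in growing cells, 3 were up-regulated (Rrp12, Ddx21 and Nop58) and Pes1 down-regulated, 16.7% and 5.56% of the list against 8.32% and 6.32% of all genes. A second probe of Ddx21 gave a ratio of -0.56 in place of 0.96.

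**Figure D2:**
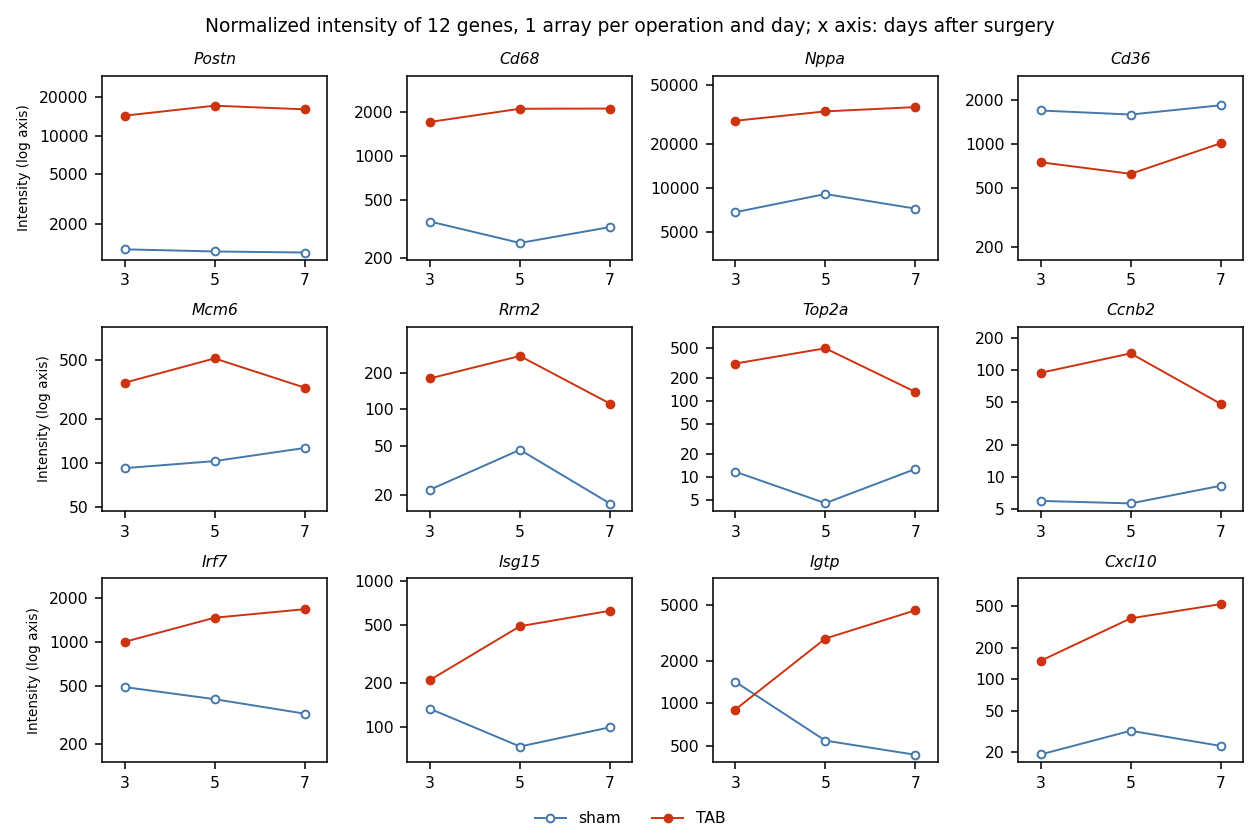
Normalized intensity (log axis) of 12 genes against the day after surgery, with 1 sham array (open, blue) and 1 TAB array (filled, red) per day; the genes are a matricellular protein, a macrophage marker, a natriuretic peptide and a fatty acid transporter in the top row, cell division genes in the middle row and interferon-related genes in the bottom row. Top2a in TAB read 312, 495 and 132 on days 3, 5 and 7, whereas Isg15 in TAB read 211, 491 and 626.

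The promoters of the mitotic genes shared letters that the choice of the list did not use. Genes of late cell division are known to be controlled through CCAAT boxes, which bind NF-Y, and through the cell cycle homology region, or CHR. The 250 bases before the start of each gene were searched on both strands for the letters CCAAT and, for the CHR, TTTGAA, in RefSeq promoters of build GRCm38.p6, which covered 12275 of the genes measured. A CCAAT box was present for 15 of 18 mitotic genes with a promoter (83.3%) and 11 of 16 replication genes (68.8%), against 39.4% of all genes and 35.7% of the up-regulated ones. The letters TTTGAA were present for 38.9% of the mitotic genes and 12.5% of the replication genes, against 13.5% of all genes. They were present for 11.65% of the up-regulated and 15.82% of the down-regulated genes. Both lists were counted whole, whether or not a member was called. These shares are a description of the letters and do not show that a site is bound. The promoters of 3 mitotic genes found on no sham array are shown, 5′ to 3′ on the gene's own strand, because they show the boxes side by side; capitals mark CCAAT boxes (CCAAT or, read from the other strand, ATTGG) and CHR letters (TTTGAA or TTCAAA). Top2a lies on the minus strand at chr11:99024190-99024439 and holds 6 CCAAT boxes and 2 CHR matches, Ccnb2 on the minus strand at chr9:70421555-70421804 with 3 boxes and 1 CHR match, and Aurka on the minus strand at chr2:172370571-172370820 with 2 boxes and no CHR match.
Top2a: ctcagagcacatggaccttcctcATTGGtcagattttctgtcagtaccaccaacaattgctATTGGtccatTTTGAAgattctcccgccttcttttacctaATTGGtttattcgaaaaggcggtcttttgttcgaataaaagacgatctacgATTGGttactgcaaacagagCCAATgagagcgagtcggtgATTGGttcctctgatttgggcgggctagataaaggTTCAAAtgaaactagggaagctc
Ccnb2: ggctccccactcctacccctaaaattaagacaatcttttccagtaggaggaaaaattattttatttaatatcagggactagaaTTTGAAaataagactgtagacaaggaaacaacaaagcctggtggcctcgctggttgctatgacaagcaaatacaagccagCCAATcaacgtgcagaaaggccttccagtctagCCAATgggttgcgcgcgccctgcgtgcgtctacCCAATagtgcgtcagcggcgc
Aurka: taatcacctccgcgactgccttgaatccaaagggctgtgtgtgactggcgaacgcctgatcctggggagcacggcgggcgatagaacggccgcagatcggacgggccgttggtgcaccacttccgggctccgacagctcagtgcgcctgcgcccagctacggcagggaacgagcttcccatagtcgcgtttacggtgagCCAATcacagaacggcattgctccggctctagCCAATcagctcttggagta
For the interferon-induced genes, of which 1 rose and 1 fell, the interferon-stimulated response element (ISRE) was present for 9 of 13 genes with a promoter (69.2%) against 3.02% of all genes. The AP-1 letters TGANTCA, a site of the Fos and Jun factors, were present for 8.69% of the up-regulated, 7.97% of the down-regulated and 6.57% of all genes.

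In heart muscle, most genes of the fetal and stretch-responsive program were up-regulated. Of 13 fetal and stretch-responsive genes, 11 were up-regulated (84.6%) and none was down-regulated, against 8.32% and 6.32% of all genes. Their median log2 ratio was 1.58. Nppa, the precursor of atrial natriuretic peptide, read 6794, 9044 and 7191 in sham and 28629.9, 33173 and 35487 in TAB (2.08 ± 0.15, adjusted p = 0.0194). Nppb, the precursor of brain natriuretic peptide, read 6689.5, 3010.0 and 5754 in sham and 22130.1, 18240.0 and 21626 in TAB, with its lowest sham value on day 5. Fhl1, a LIM protein of the stretch sensor, had a log2 ratio of 2.09, skeletal actin, Acta1, 1.77, Ankrd1 1.22 and Rcan1, a target of calcineurin, 1.38. Enah gave 1.94 on its brightest probe and 1.12 on a second one. Tnni1, slow skeletal troponin I, and Nrap did not pass (0.06 and 0.22). Of the other markers of atrial muscle, Sln, Myl7 and Myl4 did not pass (log2 ratios of -0.43, -0.44 and -0.07). Of 20 genes of the adult sarcomere 1 rose and 1 fell, 5% each against 8.32% and 6.32% of all genes, and the median was -0.17. Tcap, which caps titin at the Z-disc, read 7677, 16609 and 16728 in sham and 3014, 7988 and 7807 in TAB and fell on each day, with its lowest value on day 3 in both operations (-1.17 ± 0.14). Des, desmin, read 4191, 4400.5 and 4196 in sham and 6908, 6353 and 6833 in TAB. The alpha-myosin heavy chain Myh6 had a ratio of 0.00.

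Some genes of calcium cycling and of electrical activity were down-regulated. Of 15 calcium cycling genes, 3 fell (20%, against 6.32% of all genes) and none rose, and the median log2 ratio was -0.32, or -0.21 without day 7. Hrc, a calcium-binding protein of the sarcoplasmic reticulum, read 13767, 12244 and 12618 in sham and 8568, 5290.2 and 5431 in TAB. Trdn, triadin, had a ratio of -0.998 on its brightest probe, but the ratio reached -0.02 on another of its 3 probes. The third called gene, Fkbp1b, was found on 2 of the 6 arrays. The pump Atp2a2 (-0.48), its inhibitor Pln (-0.59, adjusted p = 0.0599) and the release channel Ryr2 (-0.43) did not pass. Of 22 ion channel and gap junction genes, 5 were down-regulated (22.7%) and 1 was up-regulated (4.55%), against 6.32% and 8.32% of all genes. The median of the list was -0.68. The summed intensity of this list, in which the brightest members weigh most, ran the other way, with 32159.5 to 38590.1 in sham and 41529.8 to 44084 in TAB. Kcnip2 and Kcnd2, a regulatory and a pore subunit of the transient outward potassium current, read 820.3, 911 and 657 and 103, 186 and 257 in sham and 235, 234 and 295 and 57.6, 40.2 and 84.96 in TAB, and all TAB arrays lay below all sham arrays. Kcnv2, Kcnj2 (-0.72) and Scn4b (-1.03) also fell.

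Part of the genes of energy metabolism were down-regulated. Of 27 genes of fatty acid uptake and oxidation, 9 fell (33.3%, against 6.32% of all genes) and none rose. The median log2 ratio was -0.70. Ppargc1a, the coactivator of mitochondrial biogenesis, read 97.1, 152 and 143 in sham and 31.95, 40.2 and 73.5 in TAB, and Cd36, a fatty acid transporter, 1698, 1594 and 1844 in sham and 753, 627 and 1014 in TAB. Their ratios were -1.50 ± 0.23 and -1.13 ± 0.16, with -0.37 on a second probe of Cd36. Ppara, the nuclear receptor that drives this program, fell by 1.10 on the log2 scale. The uncoupling protein Ucp3 (-1.31) did not pass, and neither did Angptl4, an inhibitor of lipoprotein lipase, whose sham values were 1475, 412 and 266 and whose TAB values were 1236, 661 and 1967. Of 46 genes of the respiratory chain and the TCA cycle, 7 were down-regulated and none was up-regulated, with a median of -0.37. That share of 15.2% compares with 6.32% of all genes. Cox7a1, the muscle isoform of a cytochrome oxidase subunit, read 5431, 5742 and 4728 in sham and 2882, 1854 and 2741 in TAB, and the complex I subunit Ndufs1 had a ratio of -0.97. Of 15 genes that break down branched-chain amino acids, 6 were down-regulated (40%, against 6.32% of all genes) and none was up-regulated. Their median was the lowest of all lists, -0.77. Mut, methylmalonyl-CoA mutase, read 2011, 2383 and 2256 in sham and 873, 1088 and 1098 in TAB, and its 2 probes gave -1.12 and -0.97. Bckdha, a subunit of the branched-chain keto acid dehydrogenase, gave -1.33 on its brightest probe and 0.03 on its other one. Of 22 genes of glucose use, 6 were up-regulated and the insulin-responsive transporter Slc2a4 was down-regulated (-0.83), 27.3% and 4.55% against 8.32% and 6.32% of all genes. Those that rose were the pentose phosphate genes Tkt (1.20), G6pdx (0.997) and Pgd (0.77), the glycolytic genes Pfkp (1.09) and Pgam1 (1.14) and the lactate transporter Slc16a3 (1.28).

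**Figure D3:**
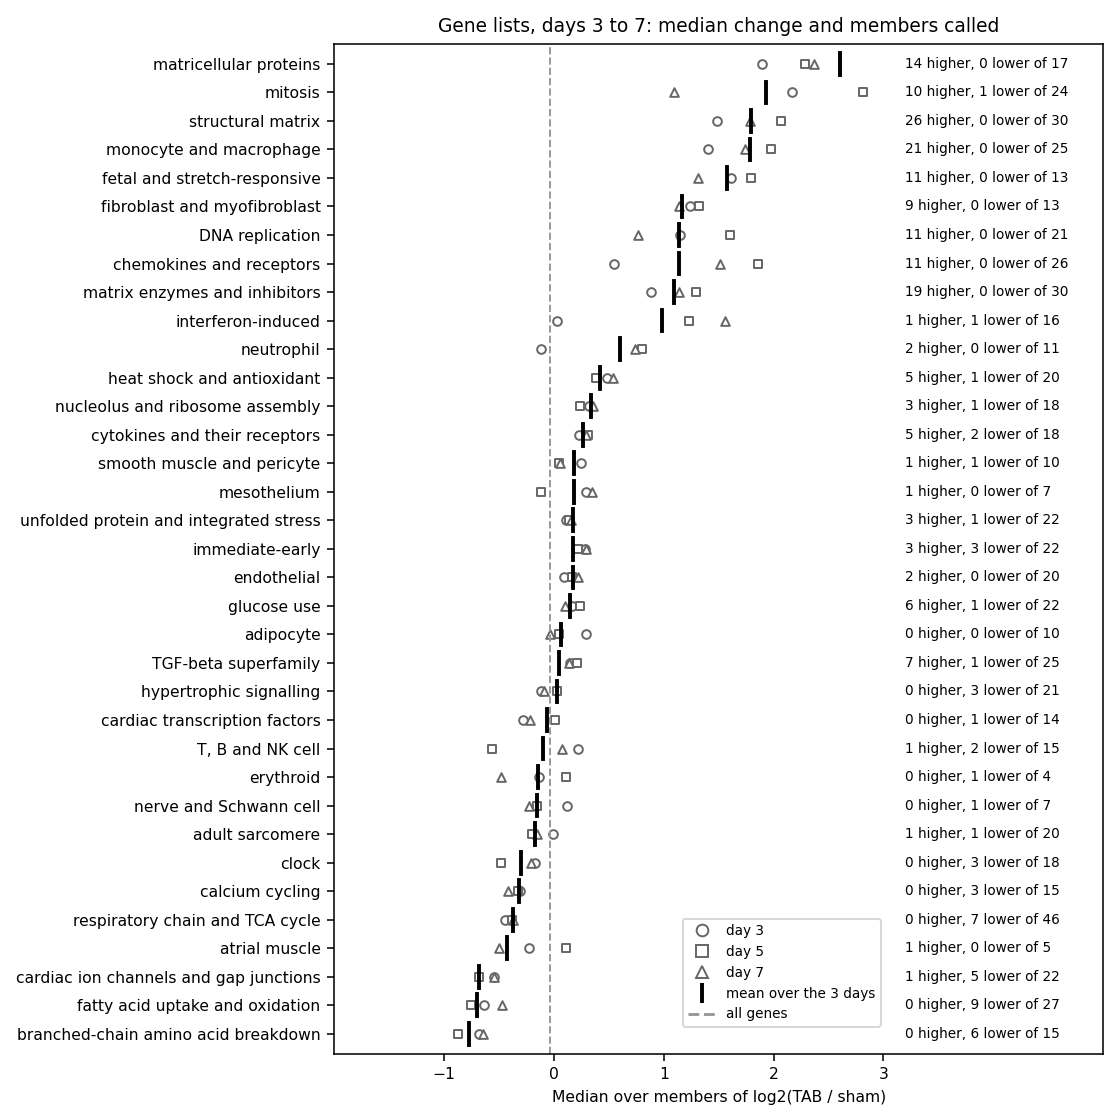
Median over the measured members of each gene list of the log2 ratio of TAB to sham, on each of days 3, 5 and 7 (open symbols) and of the 3-day mean (bar), with the number of members called in the limma fit at the right; the dashed line is the median of all genes. Matricellular proteins stand highest at 2.61 and branched-chain amino acid breakdown lowest at -0.77, and the daily medians of the mitosis, chemokine and interferon-induced lists lie farther apart than those of the respiratory chain.

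Of 22 immediate-early genes, which are switched on within minutes of a stimulus, 3 rose and 3 fell, 13.6% each against 8.32% and 6.32% of all genes. Egr2 was found on no sham array and was at least 13-fold higher, with TAB intensities of 115, 137 and 205, and Myc read 33.02, 37.4 and 41.99 in sham and 93.2, 126 and 133 in TAB. Junb had a log2 ratio of 1.32. Dusp1, a phosphatase that turns off MAP kinases, read 1756, 1654 and 1548 in sham and 442, 705 and 788 in TAB and fell, as did Fosl1 (-0.84) and Fosl2 (-0.85). Fos (0.97) and Egr1 (0.68) did not pass. Of 20 heat shock and antioxidant genes, 5 rose and 1 fell, 25% and 5% against 8.32% and 6.32% of all genes. Hmox1, which degrades heme, read 271, 419 and 403 in sham and 2042, 2492 and 2446 in TAB (2.70 ± 0.14, adjusted p = 0.0191). Gpx3, the secreted glutathione peroxidase, read 3653, 3571 and 4146 in sham and 10128, 12188 and 10821 in TAB, and Hspa1b had a ratio of 1.68. Of 22 genes of the unfolded protein and integrated stress responses, Asns (1.66), Sdf2l1 (1.39) and Edem1 (1.16) rose and Canx (-0.70) fell, which makes 13.6% and 4.55% of the list against 8.32% and 6.32% of all genes. Of 21 genes of hypertrophic signalling none rose and 3 fell, 14.3% against 6.32% of all genes, among them the angiotensin receptor Agtr1a, which read 610.0, 752 and 829 in sham and 309.9, 401 and 366 in TAB. Rgs2, which limits signalling by Gq-coupled receptors, and the adrenergic receptor Adra1a were the others, each found on fewer than 3 TAB arrays. Of 14 cardiac transcription factors Hand1 fell (7.14% against 6.32% of all genes, log2 ratio -0.95) and none rose.

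In the lists that mark other cells of the ventricle, no more than 2 genes of a list rose and no more than 1 fell, to be read against 8.32% and 6.32% of all genes. Of 20 endothelial genes, 2 rose (10%), the leukocyte adhesion molecules Vcam1, which read 1429, 1329.9 and 1544 in sham and 2619.9, 3573 and 3722 in TAB, and Icam1, which read 82.3, 84.01 and 69.9 in sham and 142, 216 and 181 in TAB. The lineage markers Pecam1 (-0.20), Cdh5 (0.17) and Vwf (-0.09) did not pass, and the summed intensity of the list was 19739 to 22394 in sham and 22822 to 23512 in TAB. The pericyte gene Rgs5 fell (-0.96) and Mcam rose (1.07). Of 7 markers of mesothelium, the cell layer of the epicardium, Aldh1a2, which makes retinoic acid, rose with intensities of 54.4, 31.3 and 36.3 in sham and 395, 490.1 and 271 in TAB. Of 7 nerve and Schwann cell genes Sox10 fell on its brightest probe (-0.88), while its second probe gave a ratio of 0.47. Of 4 erythroid genes Ahsp fell (-0.74), and none of 10 adipocyte genes passed, Fabp4 having a ratio of -0.75 and Cfd one of 0.98.

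Several clock genes differed between days by more than between operations. These genes oscillate over the day in most tissues, and the hour at which the tissue was taken is not given in the sources used here. Arntl, an activator of the clock, read 934, 50.5 and 75.2 in sham and 866, 118 and 159 in TAB on days 3, 5 and 7, so that day 3 stood apart in both operations. Dbp, an output gene with the opposite phase, read 258, 2883 and 5863 in sham and 270.2, 2875 and 2964 in TAB. Nfil3 read 312, 125 and 69.9 in sham and 288, 126 and 129.6 in TAB, and Per2, a repressor, 149, 1881 and 888 in sham and 211, 690.1 and 923 in TAB. Of 18 genes, 3 were down-regulated (16.7% against 6.32% of all genes) and none was up-regulated. Nr1d1, the repressor of Arntl also called Rev-erb alpha, read 679.9, 540.1 and 694 in sham and 163, 243 and 298 in TAB (-1.48 ± 0.24, adjusted p = 0.0369), and all TAB arrays lay below all sham arrays. Nr1d2 read 117, 468 and 556 in sham and 50.2, 205 and 251 in TAB, and Hlf 194, 518 and 461 in sham and 94.7, 204 and 277 in TAB. Within each day both genes were lower in TAB, though the operations overlapped over the days. The part of the hour of sampling in these differences was not tested. The remaining members did not pass. Among them were Bhlhe40 (log2 ratio 0.91), Clock (0.34), Npas2 (0.07), Per1 (-0.61), Per3 (-0.32), Cry1 (-0.24), Cry2 (-0.30), Tef (-0.61) and Rora (-0.28). Bhlhe41 was found on no early array.

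**Figure D4:**
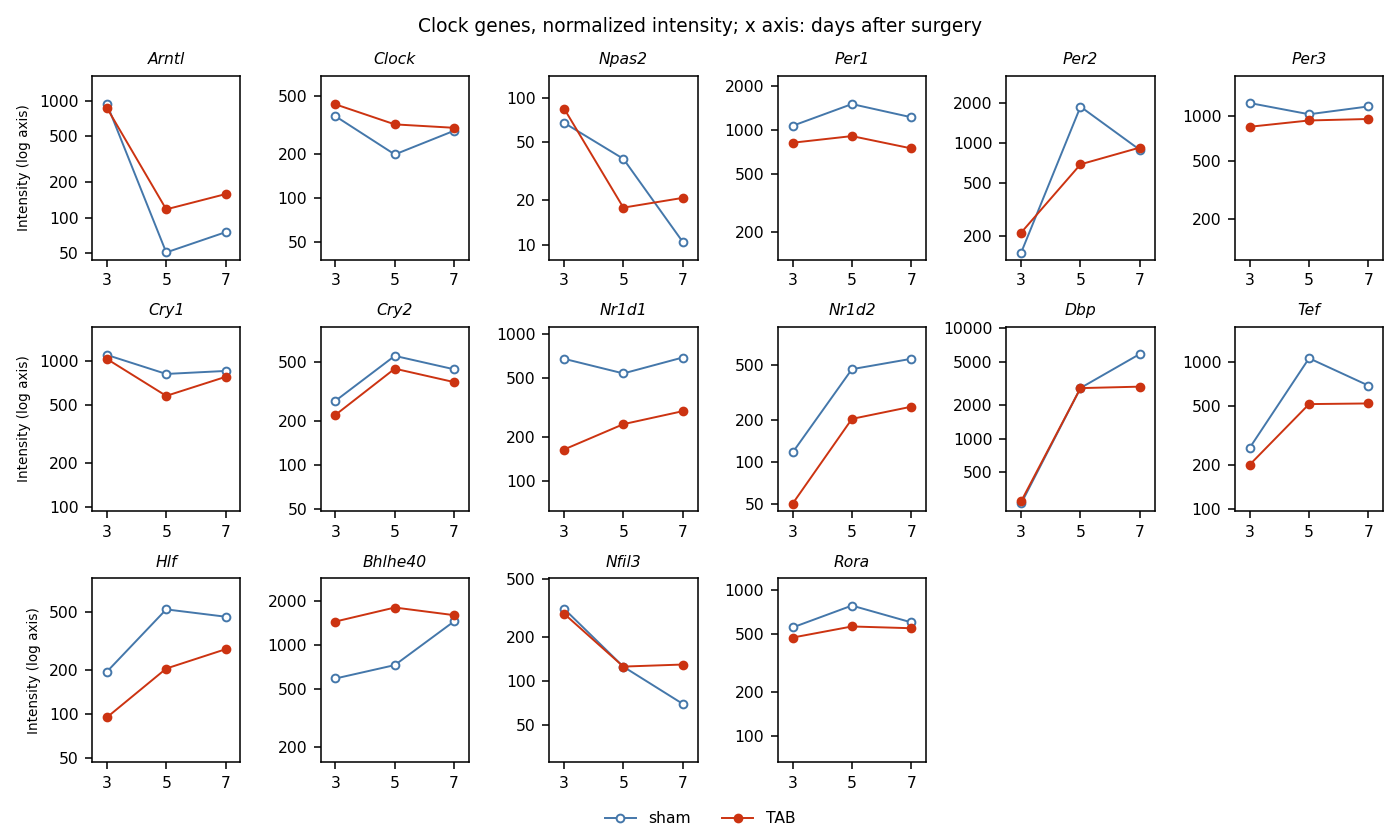
Normalized intensity (log axis) of 16 clock genes found on at least 1 early array against the day after surgery, with 1 sham array (open, blue) and 1 TAB array (filled, red) per day. Arntl, Npas2 and Nfil3 were highest and Dbp, Tef, Hlf and Nr1d2 lowest on day 3 in both operations, and Nr1d1 was lower in TAB on each day.

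The early changes were set against those of days 14 and 28, where 2 TAB and 2 sham arrays were available. The difference between the early and the late log2 ratio was tested for each gene in a limma fit over all 10 arrays with day as a block. No gene passed (0% of 16113), the lowest adjusted p was 0.167, and 1822 genes had an unadjusted p under 0.05. Of the 656 genes beyond 2-fold higher on all 3 early days, 363 were beyond 2-fold on day 14 and 187 on day 28, and of the 171 that were lower, 51 and 30. These genes were chosen by their early ratios, so lower counts on other days follow in part from the choice and cannot show a decline. No share of all genes on the late days is set beside these counts. Sprr1a had daily log2 ratios of 4.53, 4.53, 4.08, 0.49 and -0.66 on days 3, 5, 7, 14 and 28, and its early ratio exceeded the late one by 4.47 ± 0.40 (SE; adjusted p = 0.167). Serpinb1a had 3.87, 5.20, 4.72, 0.63 and 0.36, and Adam8 3.62, 4.54, 4.19, 0.60 and 0.30. Each of these genes was thus far above sham on all early days and within a log2 ratio of 1 on both late days. Socs3 showed the same order at a lower size, with 2.18, 2.17, 1.96, 0.33 and 0.17. Postn in contrast had 3.51, 3.83, 3.76, 3.37 and 2.40, so that its early and late ratios differed by 0.81 only. In the 4 of the alternative settings that called any gene, Sprr1a, Serpinb1a and the probe shared by Sfn and Gm7850 were called each time, all with larger early ratios. These settings were 50 added to the intensity (11 genes), the lowest tertile of genes left out (10), no day block (5) and a variance trend (34). The other alternatives, each fit with 1 day left out among them, called no gene.

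**Figure D5:**
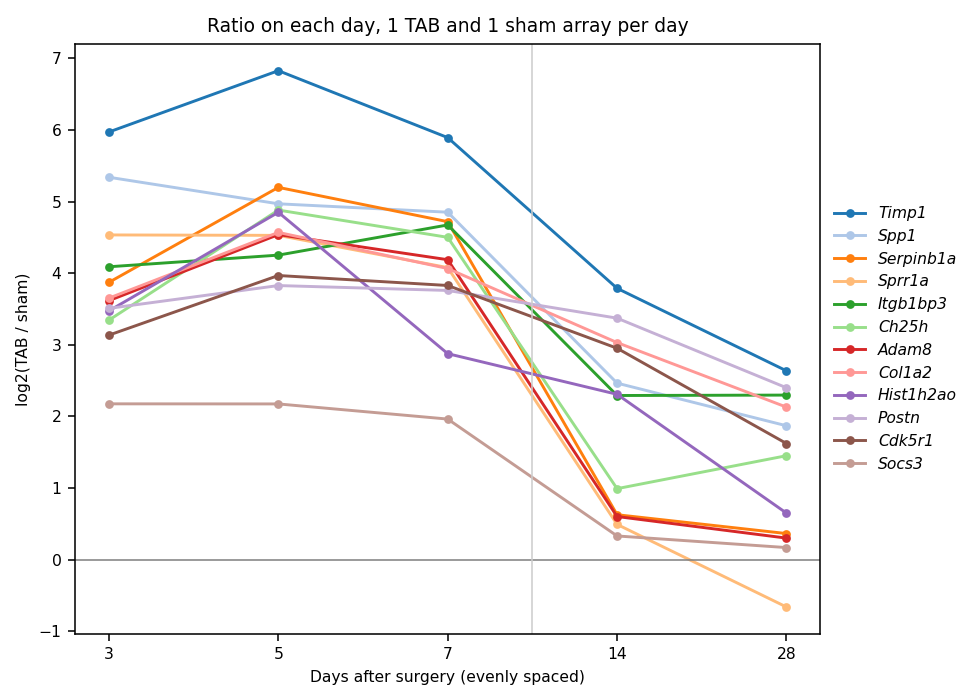
The log2 ratio of TAB to sham on each of 5 days (evenly spaced on the axis, with a line between the early and the late days) for 11 of the 12 measured genes with the highest early ratio and for Socs3; each point is 1 TAB array over 1 sham array. Sprr1a, Serpinb1a, Adam8 and Socs3 were below 1 on days 14 and 28, whereas Postn stayed above 2 on all 5 days.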

How the data were processed

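Total RNA of left ventricle was labelled with Cy5 and hybridized to the Mouse Whole Genome OneArray v2 in 1 colour, scanned with an Agilent instrument and read with GenePix. The deposited data hold 1 intensity per probe and sample, which is called 1 array here. The study also averaged repeated data of a sample, and whether the deposited values hold such averages is not given in the sources used here. The authors deposited raw spot intensity after background subtraction, with no scaling between arrays, together with a detection p-value, whose computation is not given in the sources used here, and a flag. The deposited p-value was not used. The flag of -50 was read as the usual GenePix code of an undetected spot, and such a spot was treated as not well above background; probes of at least 65000 were treated as saturated.

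Following the study's methods, all arrays received the same median by scaling and probes below 1 on any of the 10 arrays were removed (6447 of 26423). Quantile normalization then gave each rank its median over all 10 arrays, whereas the study's wording points to a median within each operation, which was run as an alternative. Intensities were log2 transformed, and the brightest of a gene's probes stood for it, because the study's own choice of the probe with the largest changes depends on the outcome. A probe without a symbol (3633) was left out. TAB and sham were compared with limma 3.58.1 in R 4.3.3 (lmFit and eBayes, trend and robust off), blocked by day, and p-values were adjusted by Benjamini-Hochberg over 16113 genes. Deviations of same-day TAB and sham arrays from their operation means correlated across genes with r = 0.0731, 0.0545 and 0.101 on days 3, 5 and 7; the block was kept because the study takes its ratios by day. On simulated data for the early effect in 16113 genes, 48 of 100 genes with a log2 change of 2 and 72 of 100 with a change of 3 were recovered, with 7 false calls. The simulated noise was independent between arrays, held no day effect and used gene spreads shuffled across genes. These rates therefore need not hold for the measured data.

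Named genes were the 12 highest and 12 lowest called genes found on all 6 arrays, the 6 highest and 6 lowest bounds, up to 4 leading members of each of 35 lists, all clock genes and the 5 called genes with the widest daily spread; single further list members are given for context. A few genes that these rules select are not reported here. The samples, lists and rules were chosen with earlier results of these data known. Alternatives changed the scaling, the filter, the probe choice, the offset, the fit and the days used. Promoters came from RefSeq (GRCm38.p6). Symbols are those of the array. Tables and plots were made with Python 3.11.15, numpy 2.4.6, pandas 2.3.3 and matplotlib 3.10.9.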

Additional observations from a re-analysis of the deposited data

Results flagged for a closer look

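For Lcn2 and Hspa5, every early day moved one way and both late days the other. Lcn2, the neutrophil and stress protein lipocalin 2, had daily log2 ratios of 1.69, 0.80, 3.28, -0.30 and -0.22 on days 3, 5, 7, 14 and 28, and its early ratio exceeded the late one by 2.19 (SE 0.74; limma, adjusted p = 0.407). Hspa5, a chaperone of the endoplasmic reticulum, had ratios of 0.64, 0.04, 3.99, -1.48 and -0.32, a difference of 2.46 (SE 1.27; adjusted p = 0.506). The ratio of Hspa5 on day 7 rests on the sham array of that day, which read 169 and on which the spot was not found, while the other early arrays read between 1597 and 2701. Neither difference passed the test.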

How the results depend on the processing

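The early count of 2358 called genes stayed within 1.5 times under median scaling, quantile normalization within each operation, to the mean of each rank or of the 6 early arrays alone, the study's probe rule, the mean of all probes and a single fit over all 10 arrays. Without the replicate block, that is with the arrays not paired by day, 3404 genes passed. The count rose to 5085 with 50 added to the intensity, 4096 for genes found on at least 3 early arrays, 4430 without the lowest tertile of genes and 5103 with trend and robust on, and fell to 0 with probes below 1 set to 1. Leaving out 1 day gave 0 to 1069, the higher values without the block, a fit chosen after seeing the data. Leaving out a day takes 2 of 6 arrays from the fit. The cause of these shifts was not tested. The 827 genes beyond 2-fold on all 3 days became 353 with 50 added, 485 without the lowest tertile, 2354 at 1.5-fold and 309 at 3-fold. The difference between early and late called no gene, against 11 with 50 added, 10 without the lowest tertile, 5 without the replicate block and 34 with trend and robust on. Its other alternatives, the fits with 1 day left out included, called none. Of 128 named genes called, 116 to 128 stayed called under the other settings that used all 3 days and tested them, apart from probes below 1 set to 1, where none did, and 1 reversed: Sox10 had a log2 ratio of 0.47 under the study's probe rule. The medians of 28 of 35 gene lists kept their sign in all 19 alternatives; the 7 exceptions were T, B and NK cells, hypertrophic signalling, cardiac transcription factors, adipocytes, erythroid cells, mesothelium and nerve. With 50 added to the intensity, which shrinks the ratios of dim genes by construction, the median log2 ratio fell from 1.14 to 0.71 for DNA replication, from 1.93 to 0.99 for mitosis and from 1.13 to 0.46 for chemokines. Genes found on no array of an operation have only bounds, a ratio with some spots not found rests in part on a level below detection, and with 1 array per operation and day no difference in the TAB to sham ratio between single days can be tested.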
